A study of Mus musculus with 12 samples.

Results

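The late phase of osteogenic differentiation was examined by comparing D28 with D10, the end of the protocol against its early osteogenic step. The comparison used the 3 D28 and the 3 D10 libraries, 6 of the 12 in the series, and every gene whose log2 value reached 1 in 3 or more of the 12 libraries, which were 17674 of the 28244 genes listed. Murine mesenchymal progenitors of cartilage were isolated from the long bone ends of C57/BL6 pups 5 or 6 days old, pelleted, and kept for 7 days in chondrogenic medium, a step that all groups shared. At D10 the pellets had then spent 3 days in osteogenic medium, and at D28 they had spent 21 days in it. The D7 and D8 pellets, with 0 and 1 days of osteogenic medium, entered the fit only through the shared estimate of the spread, and their means are given beside some genes for orientation. No genotype other than the strain is named, and the media are given in the labels by their type only. The labels number the replicates but do not say whether they came from separate animals or cultures, so the p-values measure the spread between these libraries, which may be technical.

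In endochondral bone formation, chondrocytes first build a matrix of type II collagen and aggrecan, then enlarge and switch to type X collagen, and the calcified matrix is afterwards replaced or taken over by osteoblasts that deposit type I collagen, osteocalcin and bone sialoprotein. Progenitors of this lineage can also form fat cells, a fate governed by the nuclear receptor PPARγ and the C/EBP factors. Growth factors of the BMP, Wnt, hedgehog and EGF families and their secreted antagonists set the pace of these steps.

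Below, SE is the standard error of a log2 fold change. The values are log2 of an equalized read count plus 1, called the level below, and they cannot be compared between genes because transcript length is not taken into account. Equalizing forced the libraries to share 1 distribution, so the levels of the most abundant genes follow from their rank alone. Relative depth was 0.730, 0.919 and 1.05 in the D10 libraries and 1.31, 1.2 and 1.27 in the D28 libraries. The median standard deviation between replicates, over 12181 genes with a mean level of at least 5, was 0.175 at D10 and 0.137 at D28. D10 replicate 1, the shallowest of these 6 libraries, stood apart from the other D10 libraries, with a median absolute difference in level of 0.265 from replicate 2 and 0.243 from replicate 3, against 0.110 between those. Where all libraries of a group held at most 3 reads of a gene, the fold is given as a lower bound, with every level under 2.87 raised to that value. In bulk samples, fewer cells of a type and less RNA per cell cannot be told apart.

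A gene was counted as higher or lower at D28 when its absolute log2 fold change was at least 1 and its adjusted p was under 0.05 (limma, Benjamini-Hochberg). By this rule 4854 genes differed, 27.5% of those tested, with 2431 higher (13.8%) and 2423 lower (13.7%) at D28. Without D10 replicate 1 the counts were 2287 and 2267. The groups did not overlap in 4686 of the 4854, but the rule itself favours such genes. The share without overlap over all genes tested was not counted. The median log2 fold change was 2.06 among the genes that rose and -1.65 among those that fell, and it was -0.10 over all genes tested. Changes of at least 4 on the log2 scale were seen in 326 genes that rose and 99 that fell. In 529 of the genes that rose, all D10 libraries held at most 3 reads, and in 249 of those that fell, all D28 libraries did.

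**Figure D1:**
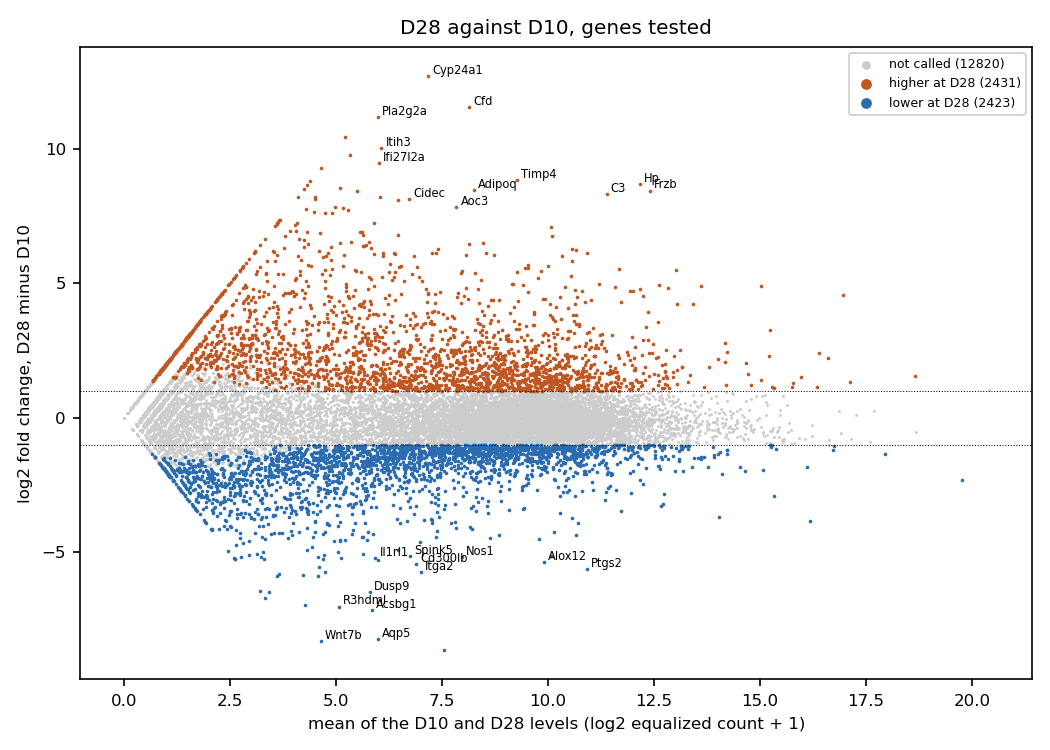
Log2 fold change of D28 against D10 (vertical axis) against the mean of the D10 and D28 levels (horizontal axis, log2 equalized count + 1) for the 17674 genes tested. Orange points are the 2431 genes that rose, blue points the 2423 that fell, dotted lines mark a log2 fold change of 1 in either direction, and the 12 largest rises and falls under the rule for named genes carry their symbols.

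The largest rises joined genes of fat cells, complement, vitamin D breakdown and Wnt inhibition. Cyp24a1, the 24-hydroxylase that degrades active vitamin D (chromosome 2, 170482708 to 170497145, GRCm38), had levels of 2.44, 0.00 and 0.00 at D10 and 14.09, 13.61 and 12.89 at D28. It was thus close to absent in the D10 libraries, as in those of D7 and D8 (means 0.00 and 0.62), and at least 1611-fold higher at D28 (adjusted p = 4.6e-10). Cfd, which encodes the adipocyte-secreted complement protease adipsin (chromosome 10, 79890853 to 79892655), stood at 1.81, 2.84 and 2.44 at D10 and at 13.58, 13.94 and 14.20 at D28. The change was 11.54 on the log2 scale (SE 0.34, adjusted p = 2.2e-12). Pla2g2a, a secreted phospholipase A2, held at most 3 reads in each D10 library and was at least 420-fold higher at D28, where its levels were 12.03, 11.49 and 11.25.

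Other members of this group were measured well above the floor at both times. Frzb, a secreted Wnt antagonist of articular cartilage (chromosome 2, 80411970 to 80447625), rose from 8.18 ± 0.15 to 16.64 ± 0.05 (SD, n = 3), which is a log2 change of 8.45 with a SE of 0.16. C3, the central complement component, rose from 7.22 ± 0.52 to 15.55 ± 0.17 (SD, n = 3), and Hp, the haemoglobin-binding acute phase protein haptoglobin, from 7.83 ± 0.42 to 16.52 ± 0.00 (SD, n = 3). The 3 D28 levels of Hp were the same value because the gene held the same rank in each library. Timp4, an inhibitor of matrix metalloproteinases, rose by 8.84 on the log2 scale and Aoc3, a cell surface amine oxidase, by 7.84. Itih3, a hyaluronan-binding inhibitor chain, and Ifi27l2a, an interferon-inducible gene, had at most 3 reads in each D10 library and were at least 296-fold and 235-fold higher at D28. The remaining members of the 12 were the adipocyte genes Adipoq and Cidec, described below.

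Because levels under 3 reads were raised to that of 3 reads, only genes well above it at D10 could rank among the largest falls. Ptgs2, the inducible cyclooxygenase of prostaglandin synthesis (chromosome 1, 150100031 to 150108227), had levels of 13.84, 13.47 and 13.89 at D10 and 9.01, 7.06 and 8.28 at D28, and it fell by 5.62 on the log2 scale (SE 0.32, adjusted p = 1.4e-09). The D7 mean was 8.70. Wnt7b, a secreted Wnt ligand, was at 8.61, 8.77 and 8.99 at D10 and held at most 3 reads in each D28 library, so that it was at least 60.3-fold lower there (adjusted p = 1.6e-10). Aqp5, a water channel gene, went from 10.11 ± 0.51 to 1.89 ± 0.71 (SD, n = 3), which is a log2 change of -8.22 with a SE of 0.33. Itga2, the collagen-binding integrin chain, fell by 5.73 and Dusp9, a MAP kinase phosphatase, by 6.48. The rest of the 12 were Acsbg1, R3hdml, Cd300lb, Alox12, Il1rl1, Nos1 and Spink5, which fell by between 5.13 and 7.14 on the log2 scale. Of these, Alox12 encodes a 12-lipoxygenase, Il1rl1 the receptor of interleukin 33 and Nos1 the neuronal nitric oxide synthase.

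**Figure D2:**
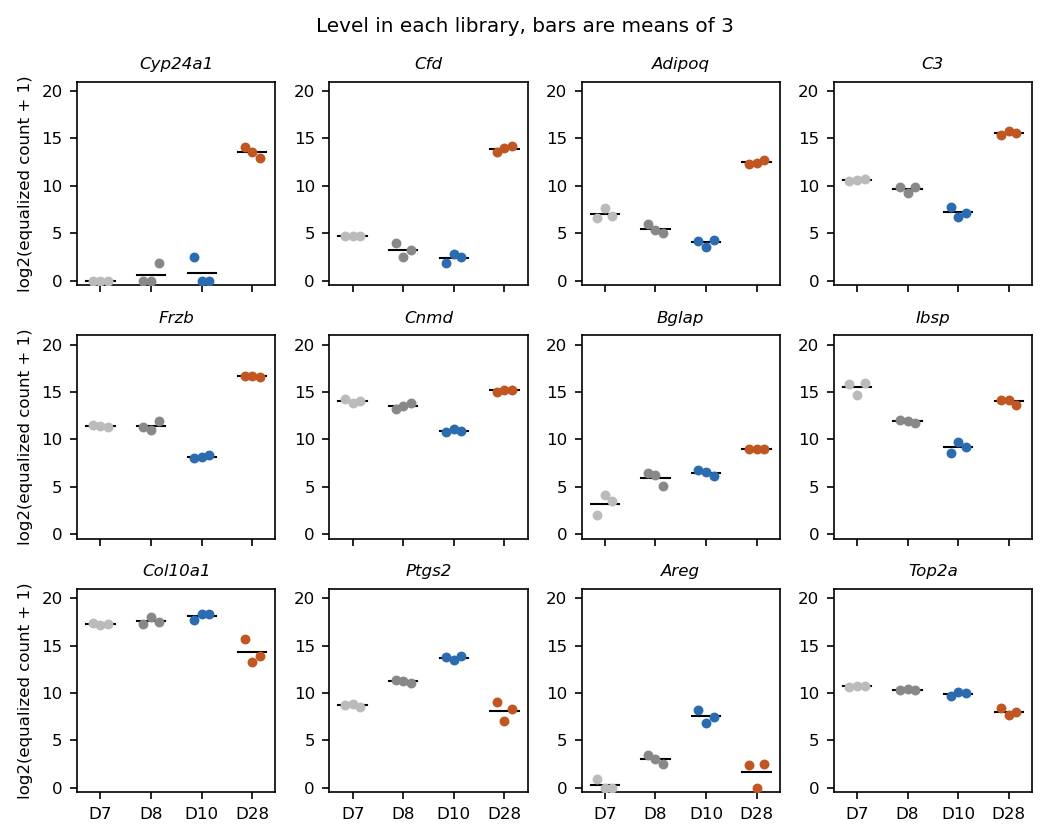
Level (log2 of the equalized count + 1) of 12 genes in each of the 12 libraries, with 3 points per time point and a bar at their mean. Cyp24a1, Cfd, Adipoq, C3 and Frzb were near or under their D7 levels at D10 and far above them at D28, whereas Ptgs2 and Areg stood highest at D10, and Top2a was lowest at D28.

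Gene lists of cartilage, bone, signaling and other cell types held 826 genes, of which 802 could be tested. The share of each list that rose or fell is read beside the 13.8% and 13.7% found over all genes.

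**Figure D3:**
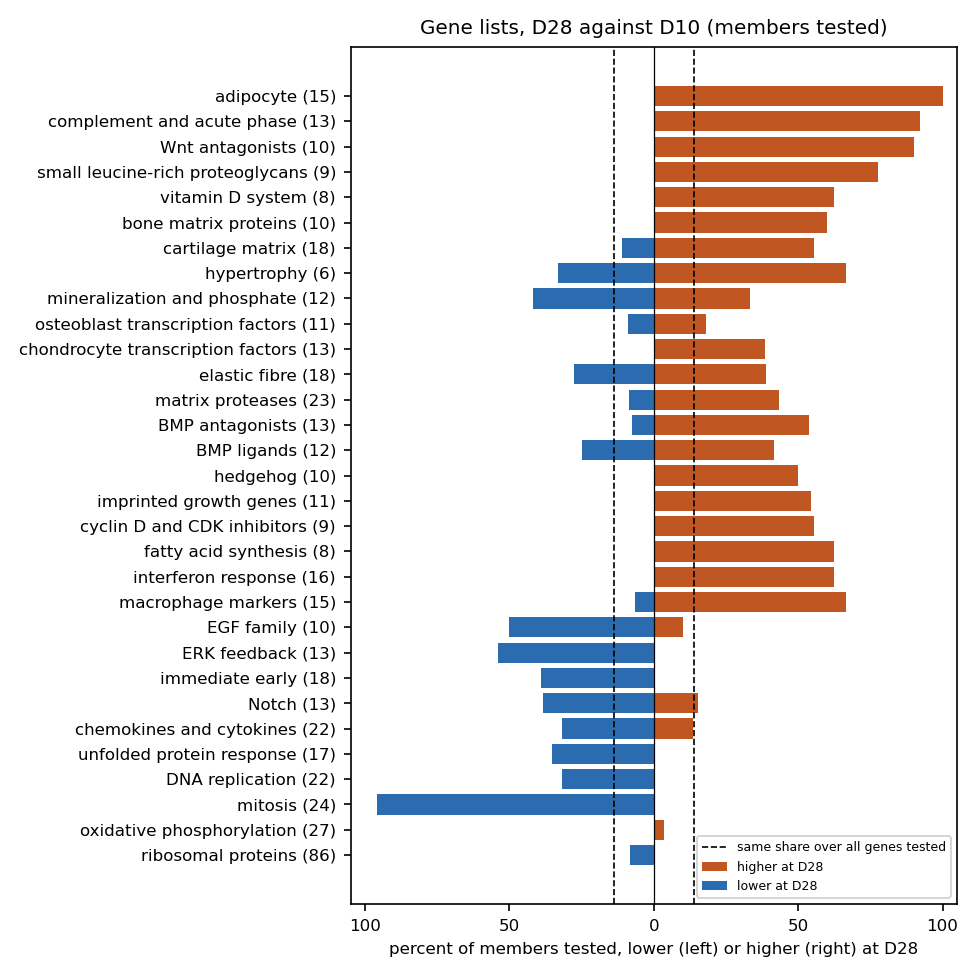
Percent of tested members that were higher (orange, to the right) or lower (blue, to the left) at D28 than at D10 in 31 of the gene lists, with the number of tested members in parentheses and dashed lines at the shares over all genes tested, 13.8% and 13.7%. Adipocyte and complement lists lie at the upper end on the right and the mitosis list, at 95.8% lower, on the left.

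All 15 adipocyte genes rose, with a median log2 fold change of 4.55. Adipoq, which encodes the fat cell hormone adiponectin (chromosome 16, 23146536 to 23158028), had levels of 4.16, 3.58 and 4.31 at D10 and 12.30, 12.45 and 12.74 at D28 (log2 change 8.48, SE 0.29, adjusted p = 7.7e-12). The regulators in the list rose, with a log2 fold change of 3.54 for Pparg (SE 0.25, adjusted p = 1.6e-08) and 2.11 for Cebpa (SE 0.16, adjusted p = 2.9e-08). Pparg was at 6.81, 6.37 and 6.54 at D10 and at 10.08, 9.91 and 10.36 at D28, so no library of one group reached the other. Fabp4, the fatty acid carrier of fat cells, rose from 9.50, 10.11 and 10.27 to 14.37, 14.44 and 14.71. Lipid droplet proteins rose as well, Plin1 by 4.26, Plin4 by 4.50 and Cidec by 8.13, and so did the lipid uptake enzyme Lpl, by 3.93. The hormone genes Lep and Retn, which encode leptin and resistin, held at most 3 reads in each D10 library and were at least 21.1-fold and 162-fold higher at D28. The smallest rise in the list was that of Dgat2, a triglyceride synthesis enzyme, at 1.94.

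Summed over the 15 genes, the unlogged level lay between 3699 and 4044 in the D10 libraries and between 72272 and 98195 in the D28 libraries. None of the 15 was at or under 3 reads in every D28 library. Pellets at D7 already held some of these transcripts, with means of 11.9 for Fabp4 and 7.1 for Adipoq. Fatty acid synthesis genes moved with them, and 5 of 8 rose and 0 fell, among them Scd1, a desaturase, by 3.25 and Srebf1, the regulator of the pathway, by 2.02.

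Of the 13 complement and acute phase genes, 12 rose and 0 fell, with a median of 4.35. C4b rose by 4.96 (SE 0.26) and Serping1, the inhibitor of the C1 proteases, from 6.84, 6.91 and 7.04 to 12.19, 11.78 and 11.66. Both C1 protease genes rose, C1s1 by 2.0 and C1ra by 2.76. Lcn2, the iron-siderophore carrier lipocalin 2, rose by 2.74 and Saa3, an acute phase apolipoprotein, by 4.35, with D28 levels of 8.41, 6.73 and 8.38. Only Cp, the ferroxidase ceruloplasmin, was not past the threshold, with a log2 fold change of 0.56 (95% interval of limma 0.27 to 0.84). Cfb, with at most 3 reads in each D10 library, was at least 1.51-fold higher, and the call was not made once levels under 3 reads were set to that of 3 reads (adjusted p = 0.082).

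The promoters of complement genes are shown because the list moved together and its members include targets of C/EBP factors, whose binding core was searched as TTGCNNAA on both strands in the 250 bases before the start. RefSeq sequences of GRCm38.p6 were at hand for 7 of the 13 genes, and 4 of them, C3, C1s1, Saa3 and Lcn2, held a match. Over all 27025 promoters the share was 9.55%, and in the adipocyte list 2 of the 9 genes with a sequence, Plin1 and Lep, had one. The sequences of C3 (chr17:57228137-57228386, - strand) and C1s1 (chr6:124542360-124542609, - strand) follow, 5′ to 3′ on the strand of the gene, with the match in capitals.
C3: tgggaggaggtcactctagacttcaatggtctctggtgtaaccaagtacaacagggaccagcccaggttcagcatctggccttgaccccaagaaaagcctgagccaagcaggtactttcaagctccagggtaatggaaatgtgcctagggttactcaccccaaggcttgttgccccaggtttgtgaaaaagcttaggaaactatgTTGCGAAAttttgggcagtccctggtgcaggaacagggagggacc
C1s1: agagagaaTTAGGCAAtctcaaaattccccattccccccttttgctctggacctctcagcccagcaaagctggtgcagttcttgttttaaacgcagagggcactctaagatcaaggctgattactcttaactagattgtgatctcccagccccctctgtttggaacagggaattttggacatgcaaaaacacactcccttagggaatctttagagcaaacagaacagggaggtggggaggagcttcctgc
The match in C3 began 45 bases before the start, and that in C1s1 began 242 bases before it, on the opposite strand. Such a match is a description of the letters and was not tested as a binding site.

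Cartilage matrix genes were mostly higher at D28. Of 18 tested, 10 rose and 2 fell, and the median was 1.14. Their summed unlogged level, led by Col2a1, was lowest at D10, between 1472760 and 1537580. It lay between 2766630 and 2856090 at D28, 3025860 and 3121440 at D7, and 2855430 and 3446910 at D8. Cnmd, which encodes the antiangiogenic cartilage protein chondromodulin (chromosome 14, 79637690 to 79662170), had levels of 10.76, 11.12 and 10.89 at D10 and 15.04, 15.21 and 15.23 at D28. The change was 4.24 on the log2 scale (SE 0.16, adjusted p = 1.4e-11), and Ucma, a secreted protein of the upper cartilage zone, rose equally clearly, by 4.25 (SE 0.22, adjusted p = 5.3e-10). Matrilin genes rose, Matn3 by 3.69 and Matn1 by 2.86, as did Hapln1, which links aggrecan to hyaluronan, by 2.78. Acan, the aggrecan gene itself, was at 16.08, 16.58 and 16.69 at D10 and at 17.82, 17.56 and 18.02 at D28 (log2 change 1.35, SE 0.32, adjusted p = 0.0021).

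Col2a1, the type II collagen gene, held 19.87 in each D10 library and the largest value of the table in each D28 library. Its log2 fold change of 1.06 had an adjusted p of 0.14 (95% interval -0.17 to 2.28), and at these ranks only a few values are possible. Col11a1 fell by 1.03 (SE 0.23, adjusted p = 0.0013), which became -0.97 without D10 replicate 2 and -0.95 without D28 replicate 2, under the fold threshold. Col9a1 was at -0.07 (95% interval -0.46 to 0.33). Cilp2, a cartilage intermediate layer protein, fell most in the list, from 10.70, 11.16 and 11.24 to 6.37, 6.93 and 6.72. Prg4, the joint lubricant lubricin, fell from 15.88 ± 0.18 to 12.2 ± 0.62 (SD, n = 3). Among 7 genes of tendon and joint, Prg4, Gdf5, Scx and Mkx were lower, and Tnmd, the tendon relative of chondromodulin, rose by 5.24 and Thbs4 by 2.17.

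Among transcription factors of chondrocytes, Sox9, the master regulator of cartilage, was at 12.44 ± 0.20 at D10 and at 12.25 ± 0.26 at D28 (SD, n = 3), and the groups overlapped (log2 fold change -0.19, 95% interval -0.53 to 0.16). Of 13 such factors 5 rose and 0 fell (1 fell without D10 replicate 1 or D10 replicate 3 and 2 without D28 replicate 1), with Sox8 up by 3.00, Foxa2 by 2.28 and Mef2c by 1.48. The other risers were Nkx3-2 and Barx2, the latter at least 6.44-fold higher.

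The hypertrophy genes split. Col10a1, the type X collagen that marks hypertrophic chondrocytes (chromosome 10, 34389981 to 34397085), had levels of 17.65, 18.32 and 18.32 at D10 and 15.64, 13.31 and 13.89 at D28, and it fell by 3.82 (SE 0.44, adjusted p = 2.7e-06). Every D28 library was lower than every D10 library, with D28 replicate 1 nearest to them. Ihh, the hedgehog ligand of prehypertrophic cells, went the other way, from 0.00, 2.84 and 2.44 to 9.27, 7.68 and 6.71 (log2 change 6.13, SE 0.66, adjusted p = 1.6e-06). D28 replicate 1 was again the highest of its group. Pth1r, the receptor for parathyroid hormone and its related peptide, rose by 2.09, the collagenase gene Mmp13 by 2.45 and the channel gene Panx3 by 3.70. Vegfa fell by 1.04, which became -0.94 without D10 replicate 1, -0.88 without D28 replicate 1 and -0.91 with median-of-ratios scaling, and these lie under the fold threshold.

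Bone matrix genes rose in 6 of 10 cases and fell in 0, with a median of 1.56. Bglap, which encodes osteocalcin (chromosome 3, 88383501 to 88384464), had levels of 6.72, 6.58 and 6.08 at D10 and 8.96, 8.98 and 9.02 at D28 (log2 change 2.52, SE 0.45, adjusted p = 0.00022). Its neighbours Bglap2 and Bglap3 rose by 1.55 and 2.84, and since the 3 genes are near-identical copies, reads may have been shared between them. Ibsp, bone sialoprotein (chromosome 5, 104299171 to 104311469), rose from 8.59, 9.72 and 9.14 to 14.20, 14.17 and 13.65 (log2 change 4.86, SE 0.29, adjusted p = 2.8e-09). The D10 mean of Ibsp lay under those of D7 and D8, 15.5 and 11.9. Mepe, a phosphoglycoprotein of osteocytes, was at 0.00 in each D10 library and at least 2.12-fold higher at D28. Sparc, osteonectin, rose by 1.56 (SE 0.39, adjusted p = 0.0034), and with levels under 3 reads set to that of 3 reads across all genes its fold stayed at 1.56 while the adjusted p was 0.17.

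The log2 fold change of Col1a1 was 0.09 (95% interval -0.63 to 0.82) and that of Col1a2 was 0.27 (95% interval -0.40 to 0.94), and in both the groups overlapped. Spp1, osteopontin, was at 18.92 in each D10 library and at 18.32, 18.61 and 18.32 at D28 (adjusted p = 0.18). Dmp1, a regulator of mineralization made by osteocytes, was at 7.42, 9.09 and 8.68 at D10 and 6.15, 8.11 and 8.06 at D28, and this difference of -0.95 passes the threshold only without D10 replicate 1 (-1.44) or without D28 replicate 2 (-1.29) among the libraries left out in turn. The osteocyte genes Sost and Fgf23 were too low to be tested, with 0.00 in all D10 libraries and at most 2.66 in 1 D28 library. Of 5 osteocyte genes tested, Mepe and Ptprz1 rose and Pdpn, the early osteocyte marker podoplanin, fell by 1.08. Ptprz1 was at 1.10 without D10 replicate 3 and 1.52 without D28 replicate 3 and was then no longer past the threshold, and Pdpn was at -0.95 with median-of-ratios scaling.

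The upstream sequence of Bglap (chr3:88384467-88384716, - strand, GRCm38.p6, RefSeq) is shown because osteocalcin is the defining transcript of the osteoblast. Capitals mark CCAAT and TATAAA, searched on both strands, and the matches do not overlap.
Bglap: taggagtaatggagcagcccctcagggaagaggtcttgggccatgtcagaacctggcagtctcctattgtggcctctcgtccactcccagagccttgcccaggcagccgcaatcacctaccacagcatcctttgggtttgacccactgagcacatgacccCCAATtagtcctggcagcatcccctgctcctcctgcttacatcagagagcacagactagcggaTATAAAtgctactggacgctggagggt
TATAAA began 27 bases before the start and CCAAT 90 bases before it. Of the 8 bone matrix genes with a sequence, 7 held CCAAT and 4 held TATAAA, against 34.5% and 13.0% of all promoters.

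Genes of mineral formation moved both ways, and among 12 tested 4 rose and 5 fell, with a median of -0.20. Alpl, the alkaline phosphatase that frees phosphate for mineral, rose from 9.83, 10.58 and 10.01 to 12.98, 12.64 and 12.20 (log2 fold change 2.47, SE 0.25, adjusted p = 8.0e-07). Smpd3, a sphingomyelinase needed for mineralization, rose by 3.83, the pyrophosphatase family gene Enpp3 by 5.37 and Mgp, an inhibitor of calcification, by 2.23. Falls were found for the phosphate importer Slc20a1 (-3.20), the pyrophosphate transporter Ank (-1.61), the ectonucleotidase Nt5e (-3.28) and the kinase Fam20c (-2.0), all without overlap of the groups. Phospho1, a phosphatase of matrix vesicles, fell by 1.09 and was at -0.95 without D10 replicate 1, -0.92 without D28 replicate 2, -0.98 without D28 replicate 3 and -0.96 with median-of-ratios scaling, each under the fold threshold.

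Of the 11 osteoblast transcription factors, 2 rose and 1 fell. The falls were 0 without D10 replicate 1 and 2 in each fit without another of the 6 libraries, and the rises were 1 without D10 replicate 1 or D28 replicate 1. Runx2, required for the osteoblast lineage, was at 10.03, 9.77 and 9.64 at D10 and 9.62, 9.65 and 9.47 at D28 (log2 fold change -0.23, 95% interval -0.55 to 0.08). Dlx5 rose by 1.52. Sp7, which encodes osterix, lay at the fold threshold with 1.00 (95% interval 0.59 to 1.42) and was at 0.85 without D10 replicate 1, 0.92 without D28 replicate 1 and 0.91 without D28 replicate 2. Atf4 fell by 1.19, and by 0.96 without D10 replicate 1.

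The small leucine-rich proteoglycans, which bind collagen fibrils, rose in 7 of 9 cases and fell in 0, with a median of 2.32. Omd, osteomodulin, had levels of 8.27, 9.62 and 8.81 at D10 and 14.57, 14.49 and 14.25 at D28 (log2 change 5.54, SE 0.36, adjusted p = 5.8e-09). Ogn rose by 4.72, Prelp by 3.58 and Aspn by 3.24, and Fmod, Lum and Dcn by between 2.21 and 2.32. Bgn, at 16.92, 16.69 and 16.64 and then 17.03, 17.03 and 16.92, was not past the threshold, nor was Kera, at 0.00, 2.03 and 0.00 and then 0.00, 2.32 and 2.52.

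Among elastic fibre genes, Eln, elastin, fell by 3.52 (SE 0.19, adjusted p = 1.0e-09), and the latent TGFβ binding genes Ltbp1, Ltbp2, Ltbp3 and Ltbp4 fell by 1.33, 1.17, 1.14 and 2.34. The fibulin genes Fbln1, Fbln5, Efemp1 and Efemp2, the microfibril genes Mfap2 and Mfap4 and the crosslinking enzyme gene Loxl1 rose, most of all Efemp1, from 6.12, 5.01 and 5.61 to 11.27, 10.75 and 10.93. This made 7 that rose and 5 that fell among 18. Of 18 other collagens 4 rose, Col12a1, Col14a1, Col16a1 and Col27a1, and 2 fell, Col6a3 and Col15a1.

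Matrix proteases rose in 10 of 23 cases and fell in 2 (1 without D10 replicate 1, or with levels under 3 reads set to that of 3 reads). The aggrecanase family gave Adamts9 (3.50), Adamts1 (2.90) and Adamts15 (2.53), and the procollagen processing gene Adamts2 rose by 1.92. Adamts4 and Adamts5, the main aggrecanases, were at -0.06 and 0.49 and not past the threshold. Mmp10 fell by 3.09. Timp3 fell by 2.92 while Timp4 and Timp2 rose, the latter by 1.24.

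Secreted Wnt antagonists rose in 9 of 10 cases and fell in 0, with a median of 3.87. Beside Frzb, Wif1 rose from 7.96, 8.20 and 7.80 to 13.15, 12.89 and 12.49 (log2 change 4.85, SE 0.19, adjusted p = 2.5e-11), and the related Sfrp5 from 3.98, 4.05 and 4.57 to 10.82, 9.91 and 10.24. Dkk1, an inhibitor at the Wnt co-receptor, was at 0.00 in each D10 library and at 5.68, 4.53 and 3.37 at D28, at least 3.15-fold higher. Sfrp4 was the exception at -0.74. Wnt target genes gave 1 rise and 3 falls among 9, and of these Lgr6 fell by 5.12 (SE 0.31) and Tcf7 by 1.52, and Lgr5 rose by 3.29. Nkd2, an inhibitor that Wnt signaling induces, fell by 2.07, and Axin2 was at 0.17 and not past the threshold.

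BMP antagonists rose in 7 of 13 cases and fell in 1. Nog, noggin, had levels of 6.72, 6.69 and 7.00 at D10 and 10.26, 10.10 and 9.67 at D28 (log2 fold change 3.20, SE 0.20, adjusted p = 3.8e-09). Fst, the activin-binding follistatin, rose by 4.76, Chrdl2 by 3.94 and Bmper by 3.40. The ligands were divided, with 5 of 12 higher and 3 lower. Bmp2 fell from 9.39, 10.27 and 10.68 to 7.22, 6.62 and 7.27, and Bmp7 fell by 3.89, while Bmp4 and Bmp3 rose by 2.93 and 2.70. Of the 7 target genes 3 rose, Id3, Id4 and Smad9 by 2.24, 3.50 and 1.14, and 1 fell, the inhibitory Smad7 by 1.35. Smad9 was under the fold threshold without D10 replicate 1 (0.988) or D28 replicate 1 (0.995). Id1 was at 0.64. In the related TGFβ list, Tgfb2 and Tgfb3 rose by 2.38 and 3.29 and the activin subunit gene Inhba fell by 3.73, and the list held 3 rises and 4 falls among 11.

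In the hedgehog list 5 of 10 genes rose and 0 fell. Besides Ihh and Pth1r, the decoy receptor Hhip rose by 1.49 and Gli2 by 1.02, the last under the fold threshold without D10 replicate 3 (0.86) or D28 replicate 1 (0.85). Ptch1 and Gli1, the usual readouts of the pathway, were at -0.05 and -0.04 with overlapping groups. Notch genes gave 2 rises and 5 falls among 13: the ligands Jag1, Dll1 and Dll4 fell by 1.62, 2.41 and 2.54, the target Hes1 by 1.87 and the receptor Notch4 by 2.19, and Notch3 and Lfng rose by 1.69 and 2.92. The fall of Dll4 was not called once every level under 3 reads was set to that of 3 reads.

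Fgfr3 and Fgfr2, receptors that restrain growth plate and drive osteoprogenitor activity, rose by 2.23 and 3.08. The FGF list as a whole held 3 rises and 2 falls among 11, the falls being Fgf21 (-2.21) and Fgf9 (-2.29), and Fgf9 was at -0.91 once levels under 3 reads were set to 3 reads. In the IGF list 5 of 10 genes rose, among them Igf1 by 2.10 and Igfbp3 by 4.23, and Igf2r and Igfbp7 fell by 1.05 and 1.28. Imprinted genes of fetal growth rose in 6 of 11 cases and fell in 0. Mest had levels of 7.60, 7.60 and 7.73 at D10 and 13.48, 13.49 and 13.47 at D28 (log2 fold change 5.84, SE 0.20), and H19, Dlk1 and Cdkn1c rose by 2.42, 2.09 and 3.15. Of 9 angiogenic ligands 4 rose, led by Angpt1 (5.44) and Vegfd (4.6), and 2 fell, Vegfa and Angpt4.

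Tnfsf11, which encodes RANKL, rose from 7.46, 8.37 and 7.89 to 11.44, 11.55 and 11.12 (log2 fold change 3.46, SE 0.18, adjusted p = 6.9e-10). Its decoy receptor gene Tnfrsf11b, osteoprotegerin, fell by 2.70. Csf1, the macrophage growth factor, was at 0.84 and Il34 rose by 1.27. Osteoclast markers gave 0 rises and 4 falls among 9 (Itgb3, Atp6v0d2, Nfatc1 and Ctsk), and Calcr was at 0.00 in all 12 libraries. The list held 1 rise without D10 replicate 1, with no filter or with the D10 and D28 libraries alone. The same held under the study's own rule and with a variance prior without a trend.

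The EGF family list, of ligands and their ErbB receptors, held 5 falls and 1 rise among 10, all of them ligands. Areg, amphiregulin (chromosome 5, 91139599 to 91148432), had levels of 8.20, 6.86 and 7.49 at D10 and 2.39, 0.00 and 2.52 at D28, and it fell by 5.88 (SE 0.63, adjusted p = 1.5e-06). At D7 its mean had been 0.31. Hbegf fell by 2.89 and Ereg by 3.01, and Nrg1 and Epgn fell from low levels, Epgn by at least 1.63-fold, which is under the fold threshold. Tgfa rose from 8.44, 8.31 and 8.38 to 10.75, 10.91 and 10.77. The receptor genes Egfr, Erbb2 and Erbb3 were not past the threshold, at 0.78, 0.22 and 1.05, though Erbb3 passed it without D10 replicate 3 (1.62).

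The Areg promoter (chr5:91139349-91139598, + strand, GRCm38.p6, RefSeq) is shown for its full cyclic AMP response element, TGACGTCA, which 1 of 6 EGF family genes with a sequence and 1.62% of all promoters held. It and TATAAA are in capitals.
Areg: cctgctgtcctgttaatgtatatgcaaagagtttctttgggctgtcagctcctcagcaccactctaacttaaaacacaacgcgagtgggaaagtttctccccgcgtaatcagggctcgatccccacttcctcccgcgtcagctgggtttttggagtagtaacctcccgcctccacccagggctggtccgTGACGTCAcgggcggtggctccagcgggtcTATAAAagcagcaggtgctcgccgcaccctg
The element began 61 bases and TATAAA 31 bases before the start.

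Genes that ERK signaling induces, namely its feedback inhibitors and ETS factors, fell in 7 of 13 cases and rose in 0, with a median of -1.10. Dusp4, a nuclear MAP kinase phosphatase, was at 10.17, 9.18 and 9.14 at D10 and 5.18, 5.08 and 5.59 at D28, a fall of 4.21 (SE 0.34, adjusted p = 6.3e-08). Dusp5 fell by 2.71, the receptor kinase inhibitors Spry2 and Spry1 by 2.54 and 1.79, and the ETS factors Etv4 and Etv1 by 2.66 and 1.43. Spred2 fell by 1.10, and by 0.93 without D28 replicate 2. Dusp6, the cytoplasmic ERK phosphatase, was at 9.68, 9.23 and 9.43 at D10 and 9.20, 8.59 and 9.28 at D28, with overlap (-0.42, adjusted p = 0.057), and Etv5 was at 0.55. The list was therefore not uniform. Immediate early genes gave 7 falls and 0 rises among 18: Atf3 (-2.68), Egr1 (-1.98), Egr2 (-1.80), Fosl1 (-1.79), Nr4a3 (-1.74), Junb (-1.32) and Egr3 (-1.22, and -0.97 without D28 replicate 3). Their summed unlogged level was 28885, 19668 and 20589 at D10, highest in replicate 1, and between 11047 and 14151 at D28, and without D10 replicate 1 the list held 8 falls and 0 rises.

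Pla2g4a, the phospholipase that frees arachidonic acid, fell from 12.71, 12.58 and 12.71 to 9.02, 8.59 and 8.63. The synthases Ptges and Ptgis and the degrading enzyme Hpgd rose, by 1.5, 1.55 and 2.59, and the list held 6 rises and 6 falls among 17. Lif and Il11, cytokines of the gp130 family, fell by 4.6 and 3.89, and Il6 and Il33 by 4.97 and 5.83. Cxcl12, the chemokine of marrow stroma, rose from 7.40, 7.48 and 7.40 to 13.32, 13.98 and 13.82 (log2 fold change 6.28, SE 0.22, adjusted p = 7.7e-12), and Il1rn, the interleukin 1 receptor antagonist, by 3.60. Of 22 chemokines and cytokines 3 rose and 7 fell, and those of Ccl11, Ccl20 and Csf2 were not called once levels under 3 reads were set to 3 reads, nor was Ccl11 without D28 replicate 1 (1.79).

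Mitotic genes fell almost throughout. Of 24 tested, 23 fell and 0 rose, with a median of -1.65. Top2a, the topoisomerase of dividing cells (chromosome 11, 98992943 to 99024189), had levels of 9.68, 10.14 and 9.97 at D10 and 8.43, 7.68 and 7.94 at D28, a fall of 1.91 (SE 0.16, adjusted p = 1.1e-07). Mki67, the proliferation antigen Ki-67, was at 8.99, 9.06 and 8.78 at D10 and at 7.99, 7.30 and 7.87 at D28. The spindle checkpoint kinase gene Bub1 fell by 3.00 and the ubiquitin-conjugating enzyme gene Ube2c by 2.83. Most falls were modest, and with a log2 fold change of at least 2 the list held 4. Cdk1 was the exception, at 8.90, 9.53 and 9.39 and then 9.18, 8.92 and 8.93 (-0.26, 95% interval -0.58 to 0.055). Kif20a fell by 1.04 but was under the fold threshold without D10 replicate 2 (-0.85), D28 replicate 2 (-0.92) or D28 replicate 3 (-0.82).

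DNA replication genes fell in 7 of 22 cases and rose in 0, led by the licensing factors Cdt1 (-3.53) and Cdc6 (-1.98), and this became 5 falls and 1 rise with median-of-ratios scaling and 6 falls and 1 rise without D10 replicate 2 or D28 replicate 2. Of 9 cyclin D and CDK inhibitor genes 5 rose and 0 fell. Cdkn2a, the locus of p16 and p19, rose from 6.92, 6.61 and 6.91 to 10.34, 10.91 and 10.69 (log2 fold change 3.83), beside Cdkn1c (3.15), Cdkn2c (1.96), Ccnd3 (1.51) and Cdkn2b (1.49). Ccnd1 and Ccnd2 were at 0.27 and 0.02.

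The promoters of mitotic genes carry CCAAT boxes and a cell cycle homology region, TTTGAA, and examples are shown because nearly the whole list moved together. On both strands of the 250 upstream bases, CCAAT was found in 17 of the 20 mitotic genes with a sequence and in 34.5% of all 27025 promoters, and TTTGAA in 7 of 20 and in 16.3%. In DNA replication genes the counts were 13 and 3 of 19. Top2a (chr11:99024190-99024439, - strand), Ccnb2 (chr9:70421555-70421804, - strand) and Kif11 (chr19:37376132-37376381, + strand) are given from RefSeq, GRCm38.p6, with both motifs in capitals in either orientation.
Top2a: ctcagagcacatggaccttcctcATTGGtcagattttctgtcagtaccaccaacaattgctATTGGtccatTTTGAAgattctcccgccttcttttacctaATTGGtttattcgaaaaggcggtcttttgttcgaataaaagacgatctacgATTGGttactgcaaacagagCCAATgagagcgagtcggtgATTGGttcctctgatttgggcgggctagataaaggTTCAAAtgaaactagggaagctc
Ccnb2: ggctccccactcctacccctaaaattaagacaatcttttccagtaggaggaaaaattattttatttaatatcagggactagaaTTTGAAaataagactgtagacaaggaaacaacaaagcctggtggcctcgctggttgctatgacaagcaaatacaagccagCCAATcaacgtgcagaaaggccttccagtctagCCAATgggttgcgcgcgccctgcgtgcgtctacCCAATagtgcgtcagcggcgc
Kif11: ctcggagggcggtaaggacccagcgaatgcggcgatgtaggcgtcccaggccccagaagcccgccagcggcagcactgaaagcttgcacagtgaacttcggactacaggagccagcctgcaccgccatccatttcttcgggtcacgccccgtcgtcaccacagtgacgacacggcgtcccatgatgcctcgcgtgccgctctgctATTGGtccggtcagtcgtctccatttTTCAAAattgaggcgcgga
Top2a held 6 CCAAT boxes and 2 copies of TTTGAA, Ccnb2 held 3 and 1, and Kif11 held 1 of each, and no match overlapped another. Cdk1, the member that did not fall, also held both motifs. Ccnb2 fell by 1.36 and Kif11 by 1.85.

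Vitamin D genes rose in 5 of 8 cases and fell in 0. Vdr, the vitamin D receptor, had levels of 6.22, 6.66 and 6.6 at D10 and 10.27, 10.30 and 9.96 at D28 (log2 fold change 3.68, SE 0.17, adjusted p = 1.2e-10). Its partner Rxra rose by 1.14. S100g, the calcium-binding calbindin D9k, was at least 15.4-fold higher, and Cyp24a1 and Tnfsf11 complete the group. Cyp27b1, which makes the active hormone, was at 3.54, 2.50 and 1.22 at D10 and 1.81, 0.00 and 3.37 at D28, with overlap. Among glucocorticoid genes 5 of 13 rose and 2 fell: the hormone-converting enzymes Hsd11b1 and Hsd11b2 rose by 2.15 and 5.43 and the response genes Fkbp5, Tsc22d3 and Zbtb16 by 1.65, 1.55 and 1.83, whereas Pdk4 and Dusp1 fell by 1.53 and 1.00. Dusp1 lay at the fold threshold and was at -0.86 without D10 replicate 1, -0.91 without D28 replicate 2 and -0.98 without D28 replicate 3.

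Genes of the unfolded protein response fell in 6 of 17 cases and rose in 0, with the same counts without D10 replicate 1. Their summed unlogged level was 368227 in that library, 270258 and 277566 in the other D10 libraries and between 149667 and 179090 at D28. Hspa5, the chaperone BiP, was at 17.46, 16.76 and 16.82 at D10 and at 14.92, 15.23 and 15.43 at D28, a fall of 1.82, and Ddit3, the stress factor CHOP, fell by 1.70. Lysosomal enzymes rose in 6 of 18 cases and fell in 1, among them the cathepsin genes Ctsz (1.54), Ctsb (1.22) and Ctsd (1.15). Of 13 hypoxia genes 4 rose, Egln3 (2.57), Bnip3 (1.90), Egln1 (1.2) and Ankrd37 (1.2), and only Vegfa fell. Smooth muscle genes rose in 4 of 12 cases and fell in 0, namely Myh11 (5.62), Mylk (4.99), Acta2 (2.88) and Lmod1, the last at least 5.26-fold higher. The defining gene Tagln was at 0.00, 3.91 and 1.97 at D10 and 3.07, 2.66 and 2.03 at D28, with overlap.

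Markers of macrophages moved with D28. Of 15 tested, 10 rose and 1 fell, and the complement C1q genes led, with C1qb at 0.00, 1.37 and 0.00 at D10 and 6.93, 9.10 and 6.20 at D28, at least 23.1-fold higher. D28 replicate 2 was the highest D28 library for 14 of the 15 genes, and the summed unlogged level was 1815, 7364 and 1761 at D28 against 1823, 1490 and 1390 at D10. Without D28 replicate 2, 6 rose and 2 fell. With the D10 and D28 libraries alone 7 rose and 0 fell, and under the study's own rule 4 rose and 0 fell. Adgre1 was at 3.26, 3.17 and 1.97 and then 4.75, 7.49 and 5.36, and Ptprc, the pan-leukocyte antigen, was at 0.00 in 2 of the 3 D10 libraries and not past the threshold. Interferon response genes rose in 10 of 16 cases and fell in 0, with D28 replicate 3 the highest D28 library in 16 of 16, and without that library 7 rose and 1 fell. Their summed unlogged level was 1644, 1416 and 1523 at D10 and 2751, 2678 and 5127 at D28, and Mx1 was at 0.00 in every D10 library and in all but 1 of D28. The part of these cells or of this response in the other results was not tested. All 15 adipocyte genes, and the 12 complement genes called above, also rose in each fit that left out 1 of the 6 libraries. Cfd belongs to both lists.

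**Figure D4:**
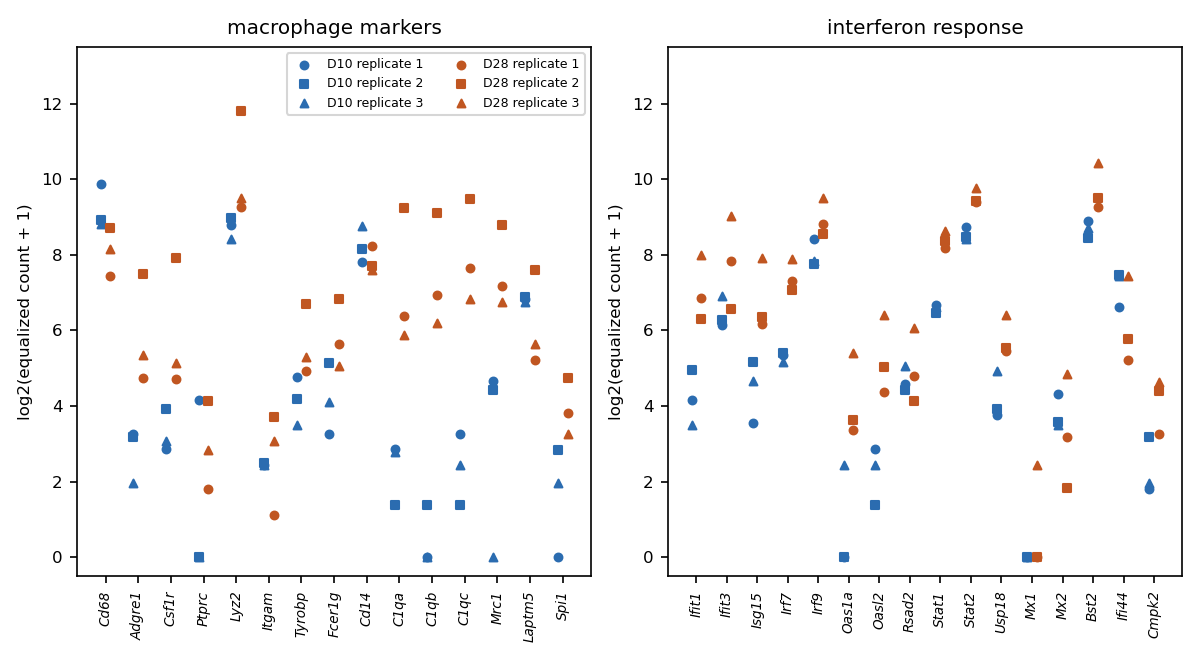
Level (log2 of the equalized count + 1) of macrophage markers (left) and interferon response genes (right) in the D10 libraries (blue) and D28 libraries (orange), with a circle, square or triangle for replicates 1, 2 and 3. The orange squares, D28 replicate 2, lie highest for most macrophage markers, and the orange triangles, D28 replicate 3, for the interferon genes.

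Endothelial markers gave 0 rises and 2 falls among 11 (5 falls without D28 replicate 1, 4 without D10 replicate 2 and 3 without D10 replicate 3, and 1 rise without D10 replicate 1), with Vwf down by 5.29 and Cdh5, at most at 3 reads in every library, and Pecam1 not past the threshold. Skeletal muscle markers gave 1 rise (2 without D28 replicate 1) and 6 falls among 15, with a summed unlogged level between 559 and 713 at D10 and between 828 and 1775 at D28, and Myog was at 4.31, 3.43 and 3.07 at D10 and 1.12, 1.84 and 1.06 at D28. Of the erythroid and lymphocyte lists 1 gene each could be tested and neither passed the threshold, and the epithelial list held 0 rises and 2 falls among 6 (1 fall without D10 replicate 1, D28 replicate 1 or D28 replicate 2). Schwann and neural markers gave 3 rises and 4 falls among 9, and 2 rises in each fit that left out 1 of the 6 libraries. Among them S100b, which chondrocytes also express, rose by 1.66 and Sox10 fell by 1.89. Once every level under 3 reads was set to that of 3 reads, the Schwann and neural list held 1 rise and 2 falls and the skeletal muscle list 1 rise and 4 falls, and Myog and Sox10 were among the calls not made. Mitochondrially encoded genes fell in 6 of 13 cases and ribosomal protein genes in 7 of 86 (8.14%; 4 with median-of-ratios scaling and 53 by adjusted p alone), with medians of -0.47 and -0.46 against -0.10 over all genes. Summed, the 13 mitochondrial genes lay between 627772 and 732323 at D10 and between 326748 and 441565 at D28, and their part in the result was not tested.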

How the data were processed

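RNA of cell pellets was sequenced in 12 libraries, 3 each at D7, D8, D10 and D28, and the D10 and D28 libraries were compared. The deposited values are log2 of equalized read counts plus a pseudocount of 1, which the authors made by trimming reads with Trimmomatic 0.36, aligning them with HISAT2 to GRCm38 according to the submitters' processing notes, counting, and equalizing the libraries to 1 distribution. Other methods text names a human build, and GRCm38 was used here. HTSeq, Cufflinks and Matlab are also named. Relative depth was recovered from the steps between low values.

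Genes whose log2 value reached 1 in 3 or more libraries were tested, 17674 of 28244. A linear model over the 4 groups was fitted with limma 3.58.1 in R 4.3.3, with a variance trend and Benjamini-Hochberg adjustment over all genes tested, and 8 residual degrees of freedom. Genes were called at a log2 fold change of 1 and an adjusted p of 0.05. The method was tested on simulated data. The text names the 12 largest changes in each direction among called genes whose groups did not overlap, ranked after levels under 3 reads were set to that of 3 reads and leaving out Gm and Rik symbols, plus the members of 59 gene lists. A few abundant transcripts outside the lists, chosen after their values were seen, are named as well. The gene lists and the comparison were chosen with earlier results of these data known. Intervals are the 95% intervals of limma, and they cover the spread between libraries only. Alternatives were another scaling, filter, pseudocount, variance prior and threshold, a replicate block, the D10 and D28 libraries alone, and leaving out each library. Gene positions are those of GENCODE M21, and upstream sequences those of RefSeq for GRCm38.p6, taken as 250 bases before each start. Figures and tables were made with pandas 2.3.3 and matplotlib 3.10.9. Some members of the lists are counted but not reported here by name.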

Additional observations from a re-analysis of the deposited data

How the results depend on the processing

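Of the 2431 genes higher and 2423 lower at D28, counts between 2287 and 2439 and between 2266 and 2470 were found when each of the 6 libraries was left out. A log2 fold change of at least 2 left 1271 and 824, and the adjusted p alone gave 3997 and 5262, since no fold was then asked for. Under the other settings the counts stayed within 1.5 times of these. Median-of-ratios scaling moved the median of all genes by 0.11 and gave 2720 and 2044, and only genes with a mean level of at least 3 gave 1931 and 2063. Setting levels under 3 reads to that of 3 reads gave 2043 and 2061. With a replicate block, the counts were 2422 and 2403. Deviations of same-numbered D10 and D28 libraries correlated at -0.18, 0.02 and -0.15, and those of differently numbered ones at between -0.16 and 0.21. With 3 libraries a group, these values cannot show whether the replicate numbers pair the samples. None of 816 genes, the list members tested and the largest changes, changed sign while past the threshold in either fit. Only 753 of them passed the filter on a mean level of 3. Sign changes of genes that were past the threshold in neither fit were not counted. With median-of-ratios scaling, Col11a1 (-0.90), Igf2r (-0.92), Ctsk (-0.99), Spred2 (-0.97), Kif20a (-0.91) and Dusp1 (-0.87) came under the fold threshold, and the cause was not tested. Depth limits low genes, since 1 read stood at between 0.50 and 1.81 on the log2 scale.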

Other observations

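Of 27 nuclear genes of oxidative phosphorylation 1 rose, Cox6c by 1.08 (0 without D10 replicate 1, and 2 without D10 replicate 2, D10 replicate 3 or D28 replicate 1), and of 19 genes of collagen folding and secretion 1 rose, Crtap, a partner of prolyl 3-hydroxylase, by 1.62 (2 rose without D10 replicate 2, and 1 fell without D10 replicate 1 or D28 replicate 1). Of 16 glycolysis genes Pfkp rose by 1.30 and the glucose transporter gene Slc2a1 fell by 1.81. In the cholesterol synthesis list 5 of 20 rose and 0 fell, namely Pmvk (2.25), Nsdhl (1.47), Mvk (1.18), Dhcr7 (1.16) and Lss (1.13).

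Clock genes were divided. Of 17, the repressor genes Nr1d1 and Nr1d2 fell by 1.56 and 1.65, as did Ciart by 1.32 and Bhlhe40 by 1.30, while Nfil3 rose by 1.52, Bhlhe41 by 1.29, Npas2 by 1.18 and Per3 by 1.11. The hour of collection is not given in the labels.

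A few abundant transcripts outside the lists were chosen after their values were seen, so their adjusted p-values from limma only describe them. Fn1, the matrix glycoprotein fibronectin, fell by 2.30 on the log2 scale (adjusted p = 0.00047). Cst3, the protease inhibitor cystatin C, rose by 4.58 (adjusted p = 4.8e-09) and Gsn, the actin-severing protein gelsolin, by 4.92 (adjusted p = 1.8e-12).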
